A study of Homo sapiens with 16 samples.

Results

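The lysosomal enzymes and membrane proteins described here were 36 named genes. The rule named them by symbol, and the list was chosen with earlier results of these data known. They comprised 7 cysteine cathepsins, 3 other peptidases, 10 glycosidases, 4 sulfatases, 6 lipid hydrolases and activator proteins, and 6 proteins of the lysosomal membrane. Probes of these genes were kept when their detection p-value was under 0.05 on 3 or more arrays. The table held 24526 probes with 18631 gene symbols, and 16110 probes passed this filter. For the members, 47 probes of 35 genes were in the table and 45 probes of 34 genes were tested. Of the 45, 44 were detected on all 16 arrays and the dimmer probe of ASAH1 on 14. The probe of CTSS (cathepsin S, best known from antigen-presenting cells) and a further probe of CTSC were detected on 0 of 16 arrays, with signals of 152 to 230 and 148 to 225 where the lowest signal in the table was 111, and neither was tested. CTSA (protective protein, a carboxypeptidase that stabilizes other lysosomal hydrolases) had no probe under that symbol. RefSeq lists PPGB as a synonym of CTSA, and the probe under PPGB is described below without being counted.

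The cells were SUM225, a breast cancer line with amplified and over expressed HER2, grown in serum-containing medium with hydrocortisone and insulin per the labels, whereas the study's methods give a serum-free medium without insulin for this line. CP724,714, a small molecule that inhibits the HER2 kinase, was given at 1 µM, and RNA of separate cultures was taken at intervals of 3 h up to 45 h, with 1 Illumina bead array for each. Each time point was therefore a group of 1 array, all groups shared the same cell line and medium, and errors given are standard errors of a cubic course fitted over the 16 arrays. A series without inhibitor was not analysed here, and effects of time in culture or of handling at the start cannot be told apart from those of the inhibitor. Fewer cells and less RNA per cell likewise cannot be told apart in bulk RNA.

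Lysosomes are acidic, membrane-bound organelles in which proteins, glycans and lipids delivered by endocytosis or autophagy are broken down. Their soluble hydrolases are made in the endoplasmic reticulum, receive a mannose 6-phosphate tag in the Golgi and are carried to the lysosome by receptors, while heavily glycosylated membrane proteins line the organelle and a proton pump acidifies it. Many lysosomal genes carry the letters TCACGTGA or close variants near their start, which are bound by the transcription factors TFEB, TFE3 and MITF, and phosphorylation by mTORC1 at the lysosomal surface retains TFEB and TFE3 in the cytoplasm.

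These letters were found in a larger share of the members' promoters than of all promoters, a difference that was not tested. RefSeq promoters (250 bases before to 50 bases after the gene start, assembly GRCh38.p14) were at hand for 24 of the 36 members. CACGTG occurred in 9 of the 24 genes (37.5%) and in 8.77% of all 27305 genes with a promoter. The longer TCACGTGA, which contains CACGTG, occurred in 6 of the 24 (25%) and in 1.18% of all genes. Over all 35116 promoters, of which a gene can have several, the shares were 7.26% and 0.980%. Both words read the same on either strand. Since many lysosomal genes are known to carry these letters, their larger share among members chosen as lysosomal is not an independent result. The stretches around TCACGTGA in the 6 promoters are shown with the match in capitals, 5′ to 3′ on the strand of the gene.
CLN3, chr16:28492069-28492106, minus strand: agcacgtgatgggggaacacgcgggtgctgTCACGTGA
CTSA, chr20:45891279-45891334, plus strand: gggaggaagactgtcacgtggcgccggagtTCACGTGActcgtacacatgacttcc
GAA, chr17:80101474-80101578, plus strand: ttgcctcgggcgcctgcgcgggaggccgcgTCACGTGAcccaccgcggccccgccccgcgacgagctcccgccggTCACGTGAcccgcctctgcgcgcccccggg
GALNS, chr16:88857093-88857152, minus strand: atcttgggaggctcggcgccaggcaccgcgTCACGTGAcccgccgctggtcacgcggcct
LAMP1, chr13:113297180-113297244, plus strand: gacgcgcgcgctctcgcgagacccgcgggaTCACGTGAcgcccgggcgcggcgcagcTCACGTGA
MCOLN1, chr19:7522552-7522623, plus strand: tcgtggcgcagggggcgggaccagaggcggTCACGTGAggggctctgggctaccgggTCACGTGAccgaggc
GAA, LAMP1 and MCOLN1 each held 2 matches. The matches began 77 and 32 bases before the start of GAA, 29 and 2 bases before that of LAMP1, 42 and 15 bases before that of MCOLN1, 26 bases before that of CTSA, 2 bases before that of CLN3 and 175 bases before that of GALNS. A match in these windows is a description of letters, and binding was not measured.

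Across the 16 arrays the median signal was 242 to 384, between 14110 and 15073 probes (57.5% to 61.5%) were detected, and the brightest probe read 71727 to 74152. All 8 epithelial marker genes examined were detected on all 16 arrays. Of 10 leukocyte and macrophage markers, cells that are rich in lysosomes, 2 were detected on 3 or more arrays (CD14 on 16, AIF1 on 11) and 7 on none, including PTPRC and ITGAM, and the summed signal of their probes ranged from 5238 at 6 h to 9191 at 21 h. CD14 rose by 0.34 ± 0.14 log2 units over the 45 h (limma, adjusted p = 0.0499), and its part in the results below was not tested. Of 7 fibroblast markers, 2 were detected on 3 or more arrays (COL1A1 and COL1A2, on 5 each) and 5 on none, with a summed signal of 1580 to 2045.

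The first question was whether the lysosomal genes moved together after the inhibitor was added. Most of them moved upward. A linear rise over the 45 h passed the limma test (adjusted p under 0.05 over all probes tested) for 28 of the 45 member probes (62.2%), where 26% of all probes rose. A linear fall passed for 2 (4.44%), where 21.7% of all probes fell. The rise was 1 log2 unit or more for 7 probes (against 5.66% of all probes) and the fall for 1 (against 6.9%), and the change was above 0, called or not, for 38 (84.4%, against 53.9%). With 1 probe per gene, 21 of 34 genes rose, against 27% of all genes, 2 fell (CTSZ and GLA), against 22%, and 11 did not pass the test. The linear change had a median of 0.40 log2 units over the member probes, with quartiles of 0.17 and 0.87 and a range of -1.37 to 1.76, and a median of 0.05 over all probes tested, with quartiles of -0.32 and 0.41. These are values on the log2 scale after addition of an offset of 16, which understates the change of dim probes.

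Differences from the start appeared within the first hours. The median difference of the member probes from the 0 h array was 0.11, 0.18, 0.34 and 0.40 log2 units at 3, 6, 9 and 15 h. It lay between 0.25 and 0.42 from 12 h to 33 h, reached 0.61 at 39 h and was 0.55 at 42 h and 0.42 at 45 h, while the median over all probes stayed between 0.01 and 0.04. At 3 h 36 of the 45 member probes were above their 0 h value (80%, against 52.3% of all probes tested), and at 42 h 42 were (93.3%, against 52.8%). All of these differences rest on the single 0 h array, on which 22 of the 45 member probes had their lowest value, as did 15.0% of all probes. The last array also stood apart, since 34 member probes were above 0 h at 45 h (75.6%, against 52.9% of all probes) and 14 were higher at 45 h than at 36 h, where 50.9% of all probes were.

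**Figure D1:**
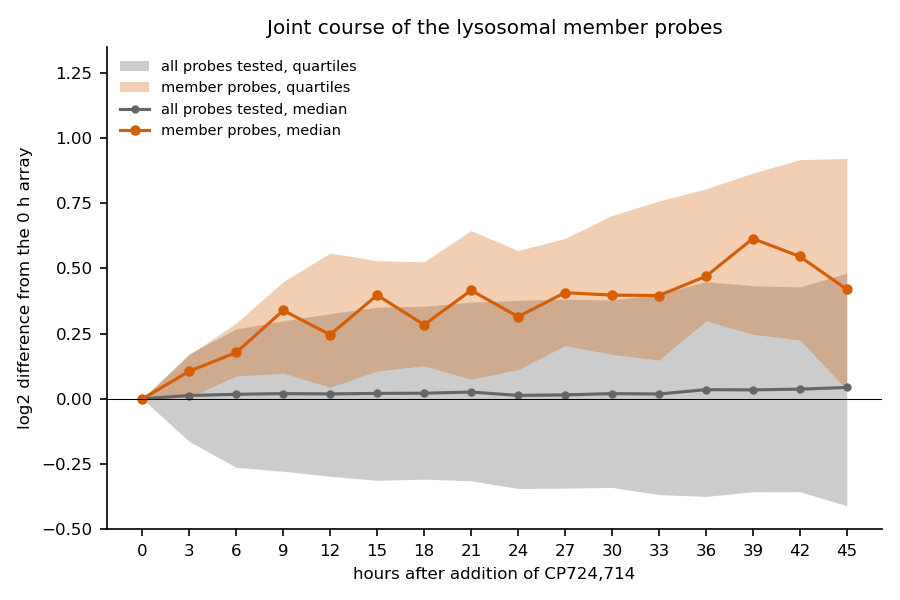
The plot shows hours after addition of CP724,714 (x) and the log2 difference from the 0 h array (y), as the median (line and points) and quartiles (shading) of the 45 member probes (orange) and of all 16110 probes tested (grey). The member median climbs to 0.34 by 9 h, stays near 0.25 to 0.42 until 33 h, peaks at 0.61 at 39 h and ends at 0.42, whereas the median of all probes stays at 0.01 to 0.04.

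Arrays of this series fall into sets of 4 consecutive time points (0 to 9, 12 to 21, 24 to 33 and 36 to 45 h) that were noticed in the data and are not named in the labels. Within the sets, the median difference of the member probes was 0.34 log2 units between 0 and 9 h, with 39 of 45 probes higher at 9 h, 0.07 between 12 and 21 h, 0.06 between 24 and 33 h and -0.14 between 36 and 45 h. Between the means of adjacent sets the member median differed by 0.21, 0.06 and 0.13, the widest difference being that between the first and the second set. When the set was a factor in the fit, 0 member probes had a linear trend in either direction by limma after adjustment. Of all probes, 0.422% rose and 0.478% fell in that fit. At an unadjusted p under 0.05 there were 9 member probes rising and 1 falling. The share of all probes at that unadjusted threshold was not computed, so these counts have nothing to be set against. The within-set change still had a median of 0.43 log2 units per 45 h over the members and 0.03 over all probes, with a median SE of 0.48 for the members in place of 0.13, and was positive for 34 of 45 member probes (75.6%, against 51.4% of all probes). Its sign was turned for 5 called probes, those of FUCA1 (-0.04 ± 0.57), SCARB2 (-0.05 ± 0.24) and GLA, the brighter one of GAA (-0.24 ± 0.58) and the dimmer one of CLN3 (-0.05 ± 0.34). With a term for a step from 21 to 24 h in place of the sets, 13 member probes rose, where 10% of all probes did, with a median change of 0.57. In that fit the brighter CTSH probe fell (-0.69 ± 0.23, limma, adjusted p = 0.0401) and GLA lost its call (-0.50 ± 0.26), where 1477 of all 16110 probes fell.

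Without a model, 24 of the 45 member probes had all 4 values at 36 to 45 h above all 4 values at 0 to 9 h (53.3%, against 19.7% of all probes), and 2 had them all below (4.44%, against 16.3%). With 0 to 21 h set against 24 to 45 h, 4 member probes lay above without overlap (against 3.71% of all probes) and 0 below (against 2.67%). The signal depended on time in the F-test of the cubic for 30 of 45 probes (66.7%, against 51.3%), and 15 departed from a straight line (33.3%, against 19.3%). The Pearson correlation between member probes of different genes over the 16 arrays averaged 0.29 (977 pairs, range -0.93 to 0.97) and that of all probes tested averaged 0.002. It is given as a description, since all probes share the same arrays.

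**Figure D2:**
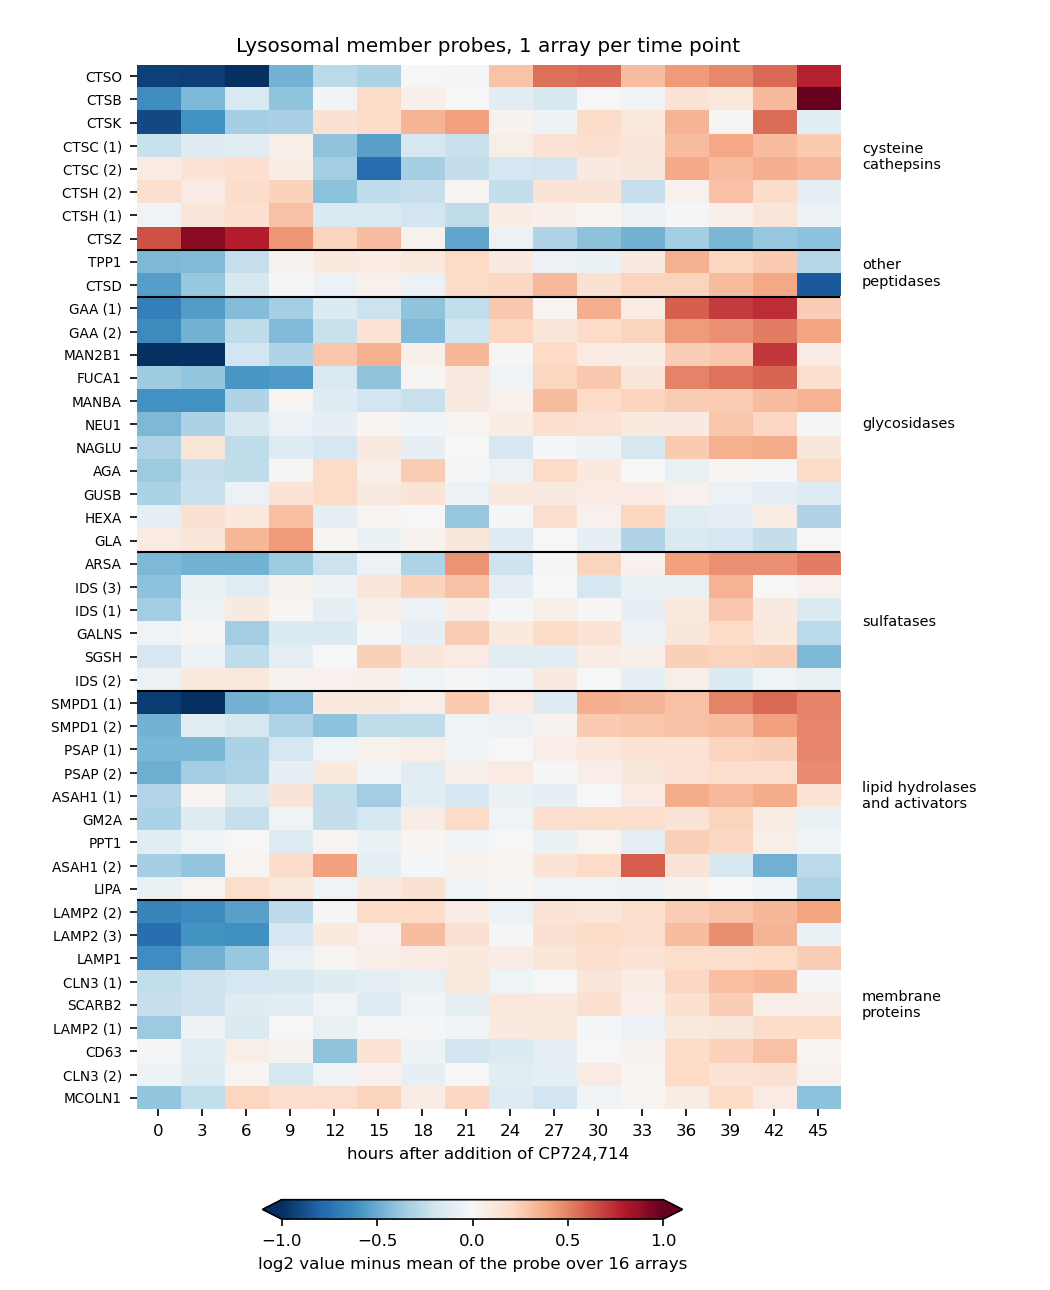
Each row is 1 member probe, grouped by role, each column 1 array at the hour given on the x axis, and the colour is the log2 value minus the mean of that probe over the 16 arrays (blue below, red above). Numbers in parentheses separate probes of a gene, the brightest first. Most rows pass from blue at 0 to 6 h to red at 36 to 42 h, CTSZ runs the other way, and CTSD turns blue at 45 h.

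Cysteine cathepsins, the papain-like proteases of the lysosome, held both the largest rise and the largest fall of the members. Of 6 genes tested, 4 rose (CTSO, CTSB, CTSK and CTSC), CTSZ fell and CTSH did not pass the test, with a median change of 0.70 log2 units. Over all genes, 27% rose and 22% fell. CTSO (cathepsin O, probe ILMN_1769633) had log2 values of 7.92, 7.91, 7.85 and 8.38 at 0, 3, 6 and 9 h, of 8.58, 8.53, 8.85 and 8.83 at 12 to 21 h, of 9.14, 9.40, 9.42 and 9.15 at 24 to 33 h and of 9.27, 9.33, 9.42 and 9.62 at 36 to 45 h. It was lowest at 6 h and highest at 45 h, and the values at 12 to 21 h all lay above those before and below those after. The linear change was 1.76 ± 0.14 (SE), or 3.39-fold (limma, adjusted p = 5.76e-09).

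CTSB, the protease cathepsin B (ILMN_2359742), had log2 values of 10.08, 10.25, 10.54 and 10.29 at 0 to 9 h, of 10.67, 10.89, 10.75 and 10.69 at 12 to 21 h, of 10.58, 10.54, 10.70 and 10.67 at 24 to 33 h and of 10.84, 10.80, 11.02 and 11.85 at 36 to 45 h. The course levelled off between 12 and 33 h and its highest value was the last array. Its linear change was 0.94 ± 0.13 (limma, adjusted p = 4.76e-06), and the departure from a straight line passed the test (adjusted p = 0.0041). CTSK, a strong collagenase best known from osteoclasts, rose by 0.77 ± 0.18 (adjusted p = 0.0014) from 6.57 at 0 h to a highest value of 8.03 at 42 h.

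CTSC (dipeptidyl peptidase 1, which activates serine proteases of leukocyte granules) had a dip in the middle of the course. Its brighter probe (ILMN_2242463) read 11.55 at 0 h, was lowest at 15 h with 11.23 and highest at 39 h with 12.15, and its dimmer probe (ILMN_1792885) read 10.96 at 0 h, 10.11 at 15 h and 11.26 at 36 h. Their linear changes were 0.64 ± 0.12 (limma, adjusted p = 0.00024) and 0.42 ± 0.15 (adjusted p = 0.0245), and the dimmer probe lost its call when any of the arrays at 12, 36, 39, 42 or 45 h was left out. The probes of CTSH, an aminopeptidase, had changes of -0.04 ± 0.11 and 0.02 ± 0.15, neither past the threshold, and ranged from 13.41 to 13.96 and from 9.05 to 9.75.

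CTSZ, a carboxypeptidase also called cathepsin X, went against most of the members. Its log2 values were 10.90, 11.17, 11.05 and 10.71 at 0 to 9 h, 10.49, 10.57, 10.31 and 9.75 at 12 to 21 h, 10.21, 9.96, 9.85 and 9.79 at 24 to 33 h and 9.92, 9.81, 9.89 and 9.85 at 36 to 45 h. All values from 36 h on lay below all values up to 9 h. The linear change was -1.37 ± 0.14 (limma, adjusted p = 1.09e-07).

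Of the other peptidases, TPP1 (tripeptidyl peptidase 1, which removes tripeptides from protein ends) rose by 0.40 ± 0.13 (limma, adjusted p = 0.0195), from 9.98 at 0 h to 10.78 at 36 h and 10.14 at 45 h. It lost its call when the 0 h array (0.29) or the 3 h array (0.30) was left out, and changed by 0.61 without the 45 h array. CTSD, the aspartic protease cathepsin D, had log2 values of 13.70, 13.87, 14.09 and 14.23 at 0 to 9 h, of 14.19, 14.29, 14.19 and 14.43 at 12 to 21 h, of 14.46, 14.58, 14.40 and 14.47 at 24 to 33 h and of 14.47, 14.57, 14.64 and 13.41 at 36 to 45 h. Every array from 3 h to 42 h was thus above the 0 h array, and the 45 h array was the lowest of the course. The linear change of 0.37 ± 0.16 did not pass the test (limma, adjusted p = 0.0617), whereas the departure from a straight line did (adjusted p = 0.0076). The change was 0.81 without the 45 h array (adjusted p = 8.57e-08) and 0.21 without the 0 h array (adjusted p = 0.339). The probe under PPGB, the older symbol of CTSA, read 11.66 at 0 h, 12.59 at its highest at 42 h and 12.12 at 45 h, with a linear change of 0.57 ± 0.12 (adjusted p = 0.00087).

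Among the glycosidases, which remove sugars from glycoproteins, glycolipids and glycogen, 7 of 10 genes rose (against 27% of all genes) and GLA fell (against 22%). GUSB and HEXA did not pass the linear test. GAA, the acid alpha-glucosidase that degrades glycogen and the gene with a pair of TCACGTGA matches shown above, had 2 probes. The brighter (ILMN_2410783) had log2 values of 8.56, 8.69, 8.81 and 8.90 at 0 to 9 h, of 9.11, 9.03, 8.84 and 9.00 at 12 to 21 h, of 9.51, 9.27, 9.60 and 9.33 at 24 to 33 h and of 9.84, 9.94, 9.98 and 9.48 at 36 to 45 h. The dimmer (ILMN_1765801) ran from 8.21 at 0 h to 9.36 at 42 h, and r between the probes was 0.93 over the 16 arrays. Both had their highest value at 42 h and no overlap between 0 to 9 h and 36 to 45 h. The linear changes were 1.27 ± 0.16 (2.42-fold, limma, adjusted p = 2.05e-06) and 1.09 ± 0.14 (2.13-fold, adjusted p = 3.49e-06).

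The enzymes MAN2B1, FUCA1 and MANBA, which trim N-glycans, rose as well. MAN2B1, the lysosomal alpha-mannosidase, had log2 values of 7.40, 7.21, 8.21 and 8.11 at 0 to 9 h, of 8.68, 8.76, 8.46 and 8.74 at 12 to 21 h, of 8.42, 8.61, 8.49 and 8.48 at 24 to 33 h and of 8.65, 8.67, 9.11 and 8.49 at 36 to 45 h. The step came between 3 and 12 h and was followed by a flat course, with a linear change of 1.07 ± 0.19 (limma, adjusted p = 0.00014). FUCA1 (alpha-fucosidase) by contrast read 9.69 to 9.91 over 0 to 9 h and 10.77 to 10.85 from 36 to 42 h, with 10.43 at 45 h, and changed by 1.06 ± 0.13 (adjusted p = 1.14e-06). MANBA (beta-mannosidase) rose by 0.89 ± 0.11, from 10.20 at 0 h to 11.15 at 45 h. NEU1 (sialidase) rose by 0.49 ± 0.08, from 12.02 at 0 h to 12.75 at 39 h. NAGLU, which acts on heparan sulfate, rose by 0.43 ± 0.14 and AGA, which cleaves the bond between asparagine and the glycan, by 0.26 ± 0.10. NAGLU lost its call without the 42 h array (0.36), and AGA without the array at 0 h (0.16) or at 3, 6 or 45 h (0.22 to 0.24).

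GLA, the alpha-galactosidase that degrades globotriaosylceramide, was the other member to fall. It read 12.66, 12.71, 12.91 and 13.01 at 0 to 9 h, 12.60, 12.51, 12.61 and 12.69 at 12 to 21 h, 12.45, 12.59, 12.50 and 12.28 at 24 to 33 h and 12.43, 12.41, 12.35 and 12.59 at 36 to 45 h. Values went up over the first 9 h before they came down, and the linear change was -0.42 ± 0.10 (limma, adjusted p = 0.0019). With the set of arrays as a factor its sign turned (0.53 ± 0.40). GUSB (beta-glucuronidase) read 12.73, 12.82, 12.99 and 13.18 at 0 to 9 h, 13.23, 13.13, 13.18 and 12.98 at 12 to 21 h, 13.14, 13.13, 13.13 and 13.12 at 24 to 33 h and 13.08, 12.98, 12.95 and 12.91 at 36 to 45 h. It was highest at 12 h and came down again, so that its linear change was 0.06 ± 0.07 while the F-test of the cubic (limma, adjusted p = 0.0021) and the departure from a straight line (adjusted p = 0.0047) passed. HEXA, the alpha subunit of beta-hexosaminidase, ranged from 7.88 at 21 h to 8.55 at 9 h with a change of -0.15 ± 0.16.

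**Figure D3:**
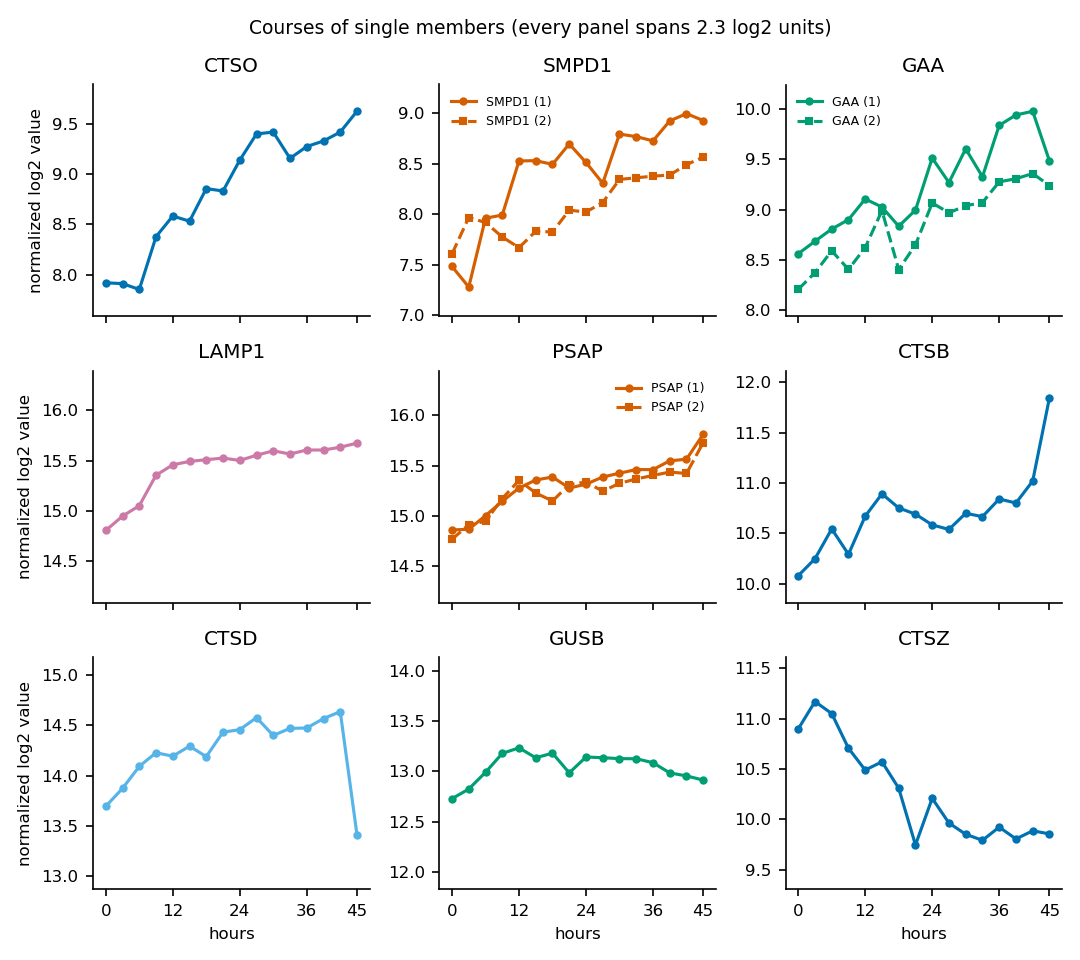
Normalized log2 value (y) against hours after addition of CP724,714 (x) for 9 members, 1 point per array, each panel spanning the same number of log2 units so that slopes can be compared but not levels. CTSO, SMPD1 and GAA climb over the whole course and LAMP1 mainly up to 12 h. Both probes of PSAP climb mainly up to 12 h and again at 45 h. GUSB turns back after 12 h, CTSB and CTSD part at 45 h with 11.85 and 13.41, and CTSZ falls from 11.17 at 3 h to 9.85 at 45 h.

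Sulfatases, which remove sulfate from glycolipids and glycosaminoglycans and share an activating enzyme, rose in 1 of 4 genes, where 27% of all genes rose. ARSA, which acts on sulfatide, had values of 7.52, 7.50, 7.50 and 7.62 at 0 to 9 h and of 8.38, 8.43, 8.43 and 8.48 at 36 to 45 h, with 7.66 to 8.42 between, and a linear change of 1.04 ± 0.16 (limma, adjusted p = 2.59e-05). Its first 4 arrays were nearly level and its late arrays all lay above them. GALNS (0.17 ± 0.13) and SGSH (0.15 ± 0.14), enzymes of keratan sulfate and heparan sulfate breakdown, did not pass the test. SGSH had its lowest value of 10.84 at 45 h, directly after its highest of 11.53 at 42 h, and its change was 0.37 without the 45 h array (adjusted p = 0.0113) and 0.09 without the 42 h array (adjusted p = 0.651). The 3 probes of IDS (iduronate 2-sulfatase) had changes of 0.20 ± 0.13, 0.17 ± 0.10 and -0.12 ± 0.07, none past the threshold, over ranges of 9.31 to 10.07, 12.18 to 12.79 and 12.34 to 12.58, and r between them ran from -0.22 to 0.64. The probe ILMN_1815445, with the change of 0.17, changed by 0.27 without the 45 h array (adjusted p = 0.0271) and by 0.06 without the 0 h array (adjusted p = 0.642).

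Lipid hydrolases and their activator proteins rose in 4 of 6 genes (against 27% of all genes). SMPD1, the acid sphingomyelinase that makes ceramide, had the largest change of them. Its brighter probe (ILMN_1757370) had log2 values of 7.48, 7.28, 7.96 and 7.99 at 0 to 9 h, of 8.53, 8.53, 8.49 and 8.70 at 12 to 21 h, of 8.51, 8.31, 8.80 and 8.77 at 24 to 33 h and of 8.73, 8.93, 9.00 and 8.93 at 36 to 45 h. All arrays from 12 h on thus lay above all earlier ones, and the linear change was 1.40 ± 0.16 (2.65-fold, limma, adjusted p = 4.81e-07). The dimmer probe (ILMN_1741684) read 7.61 at 0 h, 7.67 at 12 h and 8.57 at 45 h, and rose by 0.89 ± 0.13 (adjusted p = 8.9e-06).

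PSAP encodes prosaposin, which is cut into the saposins that present sphingolipids to their hydrolases. The brighter of its 2 probes (ILMN_1749109) had log2 values of 14.86, 14.87, 15.00 and 15.14 at 0 to 9 h, of 15.28, 15.36, 15.39 and 15.28 at 12 to 21 h, of 15.31, 15.39, 15.42 and 15.46 at 24 to 33 h and of 15.46, 15.55, 15.56 and 15.81 at 36 to 45 h. The linear changes of the probes were 0.75 ± 0.06 (limma, adjusted p = 3.12e-09) and 0.65 ± 0.06 (adjusted p = 1.07e-07), with r of 0.94 between them. Their signals reached 79.7% and 75.4% of the brightest signal on an array, and whether the change was compressed there was not tested. GM2A, the activator of GM2 ganglioside breakdown, rose by 0.39 ± 0.10 (adjusted p = 0.0034), from 10.05 at 0 h to 10.60 at 39 h.

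The probes of ASAH1 (acid ceramidase) differed. The brighter (ILMN_1684054) rose by 0.50 ± 0.13 (limma, adjusted p = 0.0044), from 9.35 at 0 h to 10.01 at 36 and 42 h, and the dimmer (ILMN_1655509) changed by 0.01 ± 0.21 with its highest value of 7.11 at 33 h and its lowest of 6.03 at 42 h. PPT1 (palmitoyl-protein thioesterase 1), whose signal reached 69.1% of the brightest, changed by 0.17 ± 0.07, and LIPA (lysosomal acid lipase) by -0.18 ± 0.09. Neither passed the test (adjusted p = 0.0704 and 0.0957), but PPT1 passed without the 33 h (0.19) or the 45 h array (0.21) and LIPA without the 0 h array (-0.25).

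Of the 6 membrane proteins 4 rose, against 27% of all genes. LAMP1, a main glycoprotein of the lysosomal membrane with a pair of TCACGTGA matches at its start, had the smallest adjusted p of the members. Its log2 values were 14.81, 14.95, 15.05 and 15.36 at 0 to 9 h, 15.46, 15.49, 15.51 and 15.53 at 12 to 21 h, 15.50, 15.55, 15.60 and 15.57 at 24 to 33 h and 15.61, 15.61, 15.63 and 15.68 at 36 to 45 h. The values went up at every step to 21 h and then nearly levelled off. The linear change was 0.70 ± 0.05 (1.62-fold, limma, adjusted p = 1.68e-09), and the departure from a straight line (adjusted p = 0.00016) had the smallest adjusted p among the members. Its signal reached 85.0% of the brightest on an array.

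LAMP2, whose product serves in chaperone-mediated autophagy and the fusion of autophagosomes, was read by 3 probes. ILMN_2243687 rose by 0.94 ± 0.09 from 12.60 at 0 h to 13.66 at 45 h (limma, adjusted p = 8.31e-08), and ILMN_1659753 by 0.87 ± 0.12 from 12.14 at 0 h to 13.36 at 39 h (adjusted p = 8.46e-06). The brightest probe (ILMN_2279961) rose by 0.35 ± 0.07 (adjusted p = 0.00036), from 13.28 at 0 h to 13.82 at 42 h. LAMP2 makes transcripts that differ in their last exon, and which of them each probe reads was not tested.

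SCARB2 (LIMP-2, the receptor that carries beta-glucocerebrosidase to the lysosome) rose by 0.38 ± 0.06 (limma, adjusted p = 1.33e-05), from 15.49 at 0 h to 15.97 at 39 h. The call was lost with median scaling between arrays (0.29 ± 0.13, limma, adjusted p = 0.0685). The signal of SCARB2 reached 91.8% of the brightest on an array, the nearest to the maximum among the members. CLN3, a membrane protein lost in juvenile neuronal ceroid lipofuscinosis, rose by 0.48 ± 0.08 (adjusted p = 0.00011) from 12.17 at 0 h to 12.74 at 42 h, and its dimmer probe, lowest at 9 h with 11.73 and highest at 36 h with 12.11, by 0.22 ± 0.08 (adjusted p = 0.0317), a call lost without the array at 3, 9, 36, 39 or 42 h (0.20 to 0.22). The tetraspanin CD63 (0.25 ± 0.12, adjusted p = 0.0943) and the calcium channel MCOLN1 (-0.01 ± 0.15) did not pass the test. MCOLN1 read 9.54 at 0 h, 10.01 to 10.15 from 6 to 21 h and 9.53 at 45 h, and the sign of its change turned under several settings. Of the 5 tested genes with TCACGTGA in the promoter, GAA, LAMP1 and CLN3 rose and GALNS and MCOLN1 did not pass the test. Among all 34 member genes tested 61.8% rose, and among all genes 27% did. Whether these letters bear on the change was not tested.

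**Figure D4:**
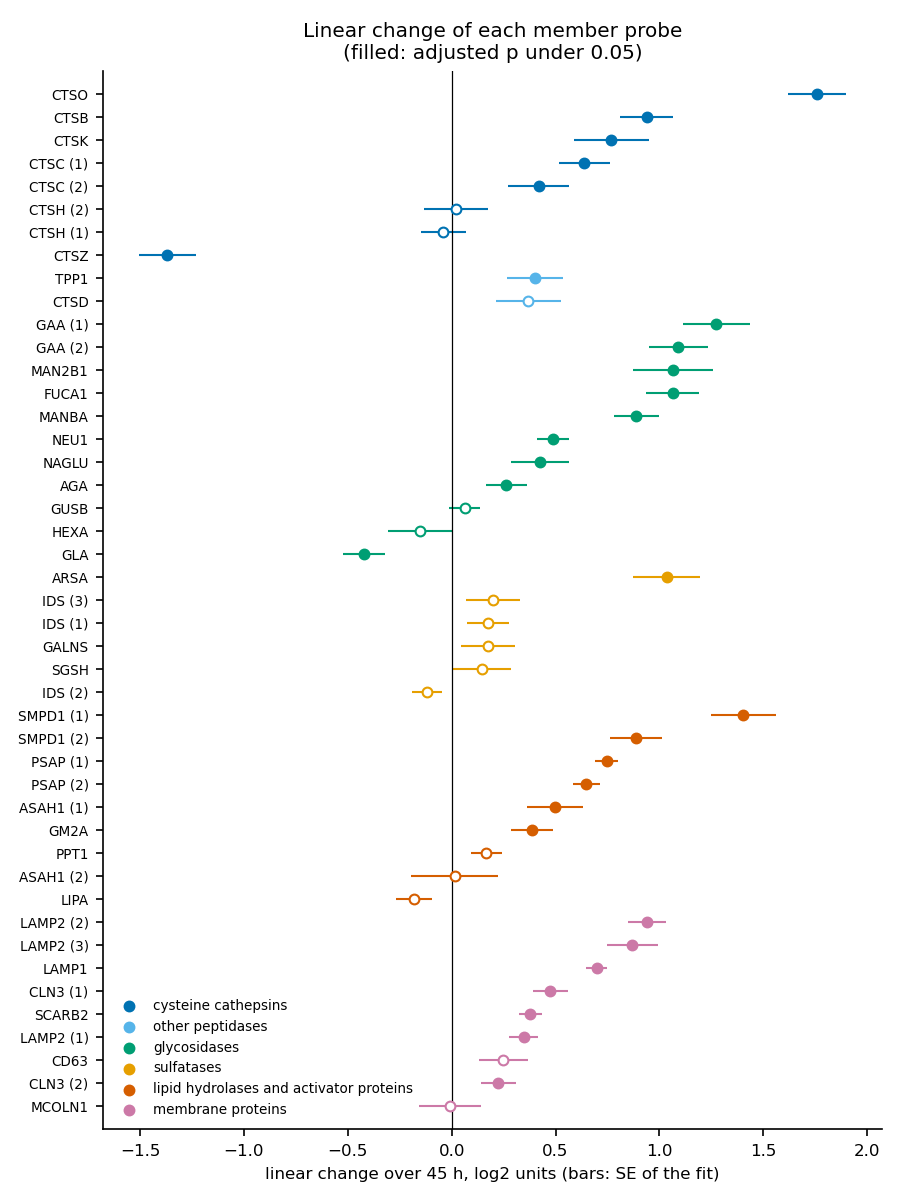
Linear change over 45 h in log2 units (x) of each of the 45 member probes (y), with bars for the SE of the fit, colours for the role, and filled points for an adjusted p under 0.05. The 28 filled points to the right of 0 reach from CLN3 at 0.22 to CTSO at 1.76, and the 2 to the left are CTSZ at -1.37 and GLA at -0.42.

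The next question was which other parts of the lysosomal system moved with the members, read from lists of genes with 1 probe each, beside 27% of all genes rising and 22% falling. With the set of 4 arrays as a factor, limma called 3 of the 28 further hydrolases, of which 2 rose and CPVL fell (-1.86). It also called 1 of 24 V-ATPase subunits and 1 of 15 genes of the MiT/TFE and mTORC1 list, both rising. Over all genes, 0.45% rose and 0.504% fell in that fit. The other 4 lists below had 0 calls. At an unadjusted p under 0.05 these 4 lists had 6 (fusion and positioning), 3 (other membrane proteins), 1 (tagging and sorting) and 1 (cystatins). The share of all genes at that threshold was not computed. The subunits of the V-ATPase, the proton pump of the lysosome, included many genes that rose. Of 24 subunit genes tested 14 rose and 0 fell by limma (1 fell at an unadjusted p under 0.05), with a median linear change of 0.48 log2 units, where the median over all genes was 0.06. ATP6V1B1 rose by 2.94 ± 0.13 (limma, adjusted p = 4.38e-12), from 12.05 at 0 h to 14.88 at 45 h. Among widely expressed subunits ATP6V0D1 rose by 0.83 ± 0.09 and ATP6V1A by 0.56 ± 0.06. The 10 subunit genes that did not pass the test included ATP6V1B2 (-0.09 ± 0.09), ATP6V1C1 (-0.13 ± 0.14) and ATP6V0C (-0.25 ± 0.12). The genes for fusion and positioning of lysosomes (HOPS complex, small GTPases and SNARE proteins among them) rose in 12 of 16, with 0 falling, also at an unadjusted p under 0.05, and a median of 0.46. RAB9A, a small GTPase of transport between late endosomes and the Golgi, rose by 1.02 ± 0.07 (limma, adjusted p = 1.38e-09), and RAB7A changed by 0.47 ± 0.06.

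Further lysosomal hydrolases and lumenal proteins outside the 36 rose in 16 and fell in 4 of 28 genes, with a median of 0.35. CTSF (cathepsin F) rose by 1.74 ± 0.13 (limma, adjusted p = 1.68e-09) and GGH, the gamma-glutamyl hydrolase that trims folate polyglutamates, fell (-1.53 ± 0.12, adjusted p = 8.27e-09). Of the other lysosomal membrane proteins 9 of 22 rose and 4 fell, with a median of 0.12 and a falling share near the 22% of all genes. SIDT2, a transporter of nucleic acids, rose by 1.69 ± 0.12, and LAMP3, detected on 11 arrays, fell (-2.06 ± 0.39).

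Of the genes that tag and sort lysosomal enzymes 10 of 24 rose and 7 fell (27% and 22% of all genes), with a median of 0.14. SORL1, a sorting receptor, rose by 0.76 ± 0.11, and AP1S2, a subunit of the AP-1 coat adaptor detected on 12 arrays, fell (-2.64 ± 0.17, limma, adjusted p = 5.51e-10). Of the MiT/TFE factors and the mTORC1 components at the lysosome 7 of 15 rose and 1 fell, with a median of 0.05. RRAGD, a Rag GTPase that recruits mTORC1 to the lysosome, rose by 1.96 ± 0.10 (adjusted p = 1.15e-11), from 9.31 at 0 h to 11.51 at 45 h. MITF fell by 1.86 on the log2 scale (SE 0.14, adjusted p = 3.81e-09), and TFEB (-0.13 ± 0.22, detected on 8 arrays) and TFE3 (-0.16 ± 0.20) did not pass the test. Of 6 cystatins, inhibitors of the cysteine cathepsins, CSTA (1.14 ± 0.15) and CST3 (0.54 ± 0.12) rose and CST1 fell (-0.57 ± 0.22), shares close to the 27% and 22% of all genes. Values of different probes were not set against each other as levels.

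**Figure D5:**
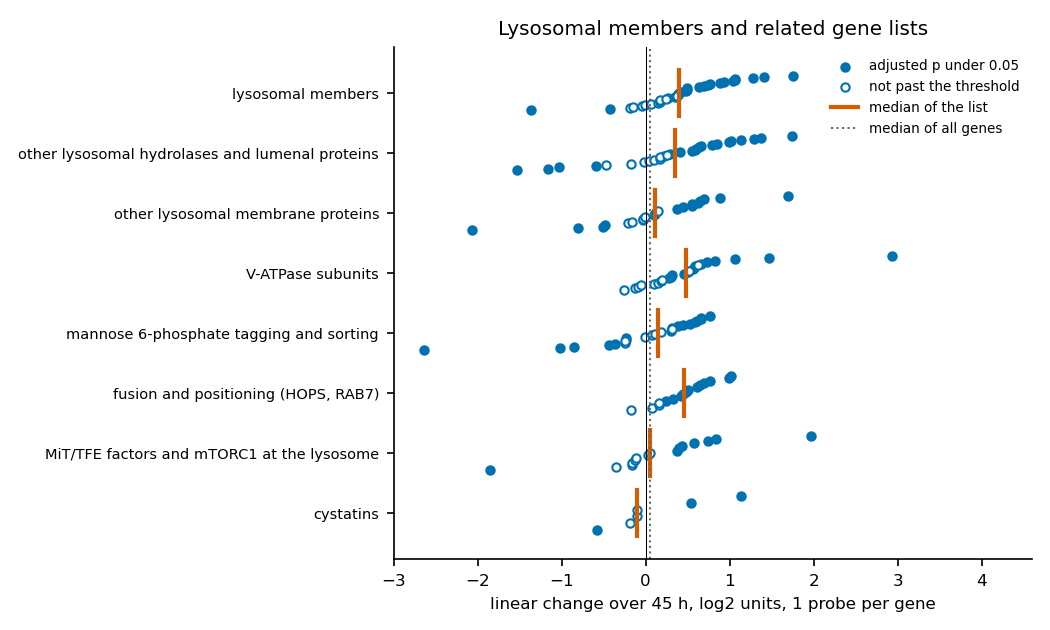
Linear change over 45 h in log2 units (x) for the members and 7 related lists (y), 1 point per gene, filled for an adjusted p under 0.05, with an orange bar at the median of each list and a dotted line at the median of all genes. The medians of the members (0.39), the V-ATPase subunits (0.48) and the fusion and positioning genes (0.46) lie to the right of the dotted line at 0.06, while those of the MiT/TFE and mTORC1 list (0.05) and the cystatins (-0.10) lie at or left of it.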

How the data were processed

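RNA was amplified into biotin-labelled cRNA and measured on Illumina bead arrays, with 1 array per time point. The deposited table gives a linear signal intensity for each probe and array, without background subtraction or normalization by the authors, and the deposited detection p-values falling as the signal rises. The study names the Illumina human Ref8v2 array for its series of MCF10A-derived lines. For the SUM225 arrays the version, the scanning software and the genome build behind the probes were not given in the sources used here. Gene symbols are those of the table, and 91.0% matched RefSeq (GRCh38.p14), from which promoter sequences and synonyms were also taken.

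Samples were grouped by the time in their labels, with 1 replicate each. From the deposited intensities, log2 values were computed with neqc of limma 3.58.1 in R 4.3.3, which infers the background from the detection p-values, adds an offset (16 here) and equalizes the quantiles of the arrays. Probes detected (p under 0.05) on 3 or more arrays were fitted with a cubic polynomial in hours (lmFit, eBayes with trend). The F-test of its 3 coefficients gave time dependence, the first-order coefficient gave the size and SE of the linear change over 45 h, and the other 2 tested for a departure from a straight line. Tests were two-sided with Benjamini-Hochberg adjustment over all 16110 probes at 0.05. The number of arrays limits the precision, and with 1 array per time point the error is the spread around the fitted course.

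Members and gene lists were chosen with earlier results of these data known, so list counts stand beside those of all probes without a set test. For counts per gene the probe with the highest mean log2 value stood for the gene. Values on every array were given for the 5 largest rises (the dimmer GAA probe by its range), the falls and the 3 clearest departures from a line, and values for each probe of genes with several probes, members not past the threshold (value only), signals past 50% of the array maximum, and the largest change in each direction of each related list. Other genes with values were chosen after their values were seen. The values of the fusion and positioning list do not include 1 gene, which is not reported here. The fit was tested on simulated data. Alternatives were cyclic loess or median scaling between arrays, an offset of 50 or uncorrected background, detection required on every array or not at all, a step from 21 to 24 h, the set of 4 arrays as a factor, array weights, a straight line, a spline with 4 degrees of freedom, other windows, the mean over probes of a gene, and each array left out in turn. Plots were made in Python 3.11.15 (matplotlib 3.10.9).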

Additional observations from a re-analysis of the deposited data

How the results depend on the processing

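Of 1214 recomputed linear changes of single member probes, 1091 kept both direction and call, and of 182 recomputed counts and medians 173 stayed close to the values given. Most of these refits left out a single array and kept all the others, so agreement was largely built in and the totals say little about the calls. With the set of 4 arrays as a factor, 8 of 45 member probes kept both, 25 lost their call and 12 changed sign. With the step from 21 to 24 h, 25 kept both, 16 lost their call and 3 changed sign. Background correction, offset, scaling, filter, array weights and shape of the course left 23 to 29 rising probes and a median linear change of 0.33 to 0.41. Over these settings 16.6% (no filter) to 30.5% (detection on all arrays) of all probes rose. Cyclic loess left 23 rising member probes, where 22.4% of all probes rose, and array weights left 29, where 28.5% did. Of the 30 called probes, 24 kept their call under every setting other than the step, the set factor and the filter for detection on all arrays, which leaves out a probe. Median scaling lost the calls of AGA, SCARB2 and the dimmer CLN3 probe. Cyclic loess lost those of AGA, NAGLU, TPP1 and the dimmer probes of CLN3 and CTSC. A straight line lost those of AGA, TPP1 and the dimmer CTSC probe, and array weights that of AGA. Calls were also gained, for rises of CTSD (0.69 ± 0.13) and CD63 (0.38 ± 0.11) with array weights and for a fall of LIPA (-0.22 ± 0.09) with cyclic loess.

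With a term for a step from 21 to 24 h, 13 probes rose and the median was 0.57. With the set of 4 arrays as a factor, 0 rose and 0 fell, with a median of 0.43. Without the 0 h and 45 h arrays together, an alternative chosen after seeing the data, 30 probes rose, against 24.2% of all probes. In that setting 9 departed from a straight line, and 4 lay below without overlap between the shortened windows. The share of all probes was not computed for either count. Comparing 0 to 21 h with 24 to 45 h left 4 above and 0 below.

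Leaving out each array in turn gave 29 (without 0 h) to 34 (without 45 h) time-dependent probes and 11 (without 3 h) to 16 with a departure from a straight line. The share of all probes was not computed for either count with an array left out. In the fit to all arrays it was 51.3% and 19.3%. Rising probes numbered 25 (without 3 h) to 30 (without 45 h), against 23.2% and 26.1% of all probes. Falling probes numbered 2 to 3 (without 0 h), and without 0 h 3192 of all 16110 probes fell. Between the windows, 24 to 33 (without 45 h) lay above and 2 to 4 (without 0 h) below. A window that lost an array held fewer values, which makes non-overlap easier for any probe. The share of all probes was not computed for these windows. The median linear change was 0.36 (without 0 h) to 0.50 (without 45 h).

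The sign of the change turned for probes near 0 and also for the called probes of FUCA1, GAA, GLA, SCARB2 and CLN3. MCOLN1 was at 0.0099 with median scaling, 0.58 with the step, 0.43 with the set factor and 0.21 with array weights. A CTSH probe was at -0.0702 with cyclic loess. The dimmer ASAH1 probe was at -0.21 with the step, -0.026 with array weights and -0.013 without the first and last arrays, and GUSB at -0.14 with the step. With the set factor, the values were -0.051 for the dimmer CLN3 probe, -0.31 for CTSD, 0.069 for a CTSH probe, -0.045 for FUCA1, -0.24 for the brighter GAA probe, -0.47 for GALNS, 0.53 for GLA, 0.16 for HEXA, -0.46 for PPT1, -0.047 for SCARB2 and -0.47 for SGSH. Over the arrays left out, the dimmer ASAH1 probe ran from -0.13 to 0.18, the CTSH probes from -0.088 to 0.023 and from -0.063 to 0.092, GUSB from -0.061 to 0.13 and MCOLN1 from -0.18 to 0.16. The cause of these changes was not tested.

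No paired analysis was possible because 1 array stood for each time. With 1 array per time point, an irregular array at 0 or 45 h bears on every difference from 0 h, and changes of probes near the array maximum or near background are the least certain.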
